A study of Mus musculus with 11 samples.

Results

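The clustered histone genes are the 70 of 55536 measured genes whose symbol begins with Hist1h, Hist2h, Hist3h or Hist4h in the mouse nomenclature used by the deposited tables. They were read in 11 bulk RNA-sequencing libraries of pancreatic islets from wild-type C57BL/6J female mice. Virgin and multipara mice were littermates assigned at 9 weeks of age, multipara mice went through 3 consecutive pregnancies, and islets were taken 3 weeks after the last delivery. There were 3 virgin and 4 multipara libraries after treatment with S-961, an antagonist of the insulin receptor, and 2 virgin and 2 multipara libraries without treatment. The labels do not say whether a library came from 1 mouse or from a pool, or what the untreated mice received, so p-values measure the spread between libraries.

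Histones are the proteins around which DNA is wound in the nucleus. H2A, H2B, H3 and H4 form the core of the nucleosome, and H1 binds the linker DNA between nucleosomes. The clustered genes are read mainly in S phase, when new DNA has to be packed, and their messengers are the known exception among animal mRNAs: most carry no poly(A) tail and end instead in a short conserved stem-loop that is bound by the protein Slbp. Some clustered genes also give longer, polyadenylated transcripts, which are found in differentiated, non-dividing cells. All libraries here were selected for poly(A) RNA, so a histone messenger without a tail is largely removed before sequencing, and the values below follow the messengers with a tail and whatever passed the selection by other means.

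By cluster, 56 members belonged to Hist1 on chromosome 13, 10 to Hist2 on chromosome 3, 3 to Hist3 on chromosome 11 and 1, Hist4h4, to Hist4 on chromosome 6. The 67 protein-coding members covered all 5 classes, and the other 3, Hist1h2aj, Hist1h2al and Hist3h2bb-ps, were annotated as pseudogenes. Over all 70, there were 6 H1, 20 H2A, 19 H2B, 12 H3 and 13 H4 genes. Coordinates follow GENCODE M21 on GRCm38.

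The 3′ ends set these genes apart from other genes. Only 27 of the 67 coding members (40.3%) had an annotated 3′ end more than 150 bases past the stop codon, compared with 18948 of 21834 other protein-coding genes (86.8%). A hairpin of 16 bases was searched in the first 100 bases after the stop codon, with a stem of 6 pairs that opens with GG and closes with CC and a loop of 4 bases that opens with TT. It was found in 44 of the 52 members whose annotation reaches at least 16 bases past the stop codon (84.6%), and in 81 of 20929 other coding genes (0.387%). The form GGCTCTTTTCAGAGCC occurred in 26 members, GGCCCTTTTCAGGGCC in 7 and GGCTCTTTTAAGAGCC in 6, and the hairpin began between base 22 and base 59 after the stop codon. Each of the following genes turns up in the results below, and its hairpin is printed 5′ to 3′ on the gene's strand in capitals with 5 flanking bases on either side, all within the single exon of the gene.
Hist1h1c, plus strand, chr13:23739507-23739532: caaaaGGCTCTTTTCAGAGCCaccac
Hist1h4h, plus strand, chr13:23531453-23531478: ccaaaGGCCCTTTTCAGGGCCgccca
Hist1h4i, minus strand, chr13:22040961-22040986: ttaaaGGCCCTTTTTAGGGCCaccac
Hist1h4j, plus strand, chr13:21735432-21735457: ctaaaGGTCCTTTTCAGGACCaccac
Hist2h2aa1, plus strand, chr3:96246027-96246052: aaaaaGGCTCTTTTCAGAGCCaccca
Hist3h2ba, plus strand, chr11:58949344-58949369: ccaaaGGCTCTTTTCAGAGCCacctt
Hist4h4, minus strand, chr6:136803993-136804018: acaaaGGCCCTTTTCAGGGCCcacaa
In those printed, the inner pairs of the stem differ between the H4 genes and the others, while the outer pairs and the opening of the loop were set by the search. Of the members on the polyadenylated list, Hist1h2bc and Hist2h2be showed no hairpin. The annotated transcript of Hist1h2bc has more than 1 exon, so the window after its stop codon is read from the spliced transcript.

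RefSeq promoters (GRCm38.p6) were matched for 62 members. The octamer ATTTGCAT was present on either strand in 7 of 17 H2B and 7 of 18 H2A promoters and in none of the H1, H3 or H4 promoters, compared with 1.7% of all 32851 promoters of that length. Some neighbouring H2A and H2B genes, such as Hist1h2ae and Hist1h2bg, have overlapping promoters on opposite strands. A shared octamer was then counted in both classes. The letters CCAAT occurred in every H1, H2A, H2B and H3 promoter matched and in 3 of 12 H4 promoters, against 37.4% of all promoters. The letters TATAAA occurred in 8 of 12 H4 and 4 of 6 H1 promoters, against 13.6% of all. The promoter at the start nearest the coding sequence of Hist1h2be, an H2B gene that moved with treatment, shows the arrangement, with the octamer 67 bases before the start and 3 copies of CCAAT, between 192 and 96 bases before it, in capitals.
Hist1h2be, minus strand, chr13:23585921-23586220: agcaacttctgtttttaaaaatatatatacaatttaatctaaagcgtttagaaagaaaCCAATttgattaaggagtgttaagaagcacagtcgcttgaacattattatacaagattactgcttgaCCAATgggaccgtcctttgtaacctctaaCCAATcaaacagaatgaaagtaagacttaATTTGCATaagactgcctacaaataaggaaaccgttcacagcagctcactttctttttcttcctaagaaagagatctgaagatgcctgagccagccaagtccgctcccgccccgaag

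Libraries held between 22028484 and 32234140 counts. The labelled tissue showed in its insulin transcripts, with Ins1 and Ins2 taking 35.3% to 41.4% of the counts in the 4 untreated and 13.2% to 20.7% in the 7 S-961 libraries, and 12 genes of acinar cells summed to 76.2 to 208 CPM (counts per 1000000 counts of the library) without treatment and 2070 to 15600 CPM after it. Levels below are CPM on library sizes scaled by TMM (trimmed mean of M values), whose factors were 0.72 to 0.845 without treatment and 1.07 to 1.3 after S-961. The library labelled multipara S-961 4 stood apart from its group in the 20 S-phase and proliferation genes, at a summed 192 CPM compared with 370 to 819 CPM in multipara S-961 1 to 3 and 190 to 213 CPM in virgin S-961, so results that rest on it are given with and without it. No gene read here checks a parity label, so every difference between virgin and multipara islets below is one between libraries as labelled. Whether a label was exchanged was not tested, and an exchange would turn the direction of those differences. In the library labelled multipara untreated 1, 7 immune genes summed to 875 CPM, compared with 30.9 to 117 CPM in the other 10 libraries.

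Together the 70 members made up 0.0288% to 0.0534% of a library's counts after S-961 and 0.0447% to 0.0494% without treatment, so these shares overlapped. A small number of genes held most of this. The linker histone gene Hist1h1c and the H2B gene Hist1h2bc together accounted for 48.3% to 58.7% of the members' summed level in every library, and the 5 highest, which add the H2A genes Hist2h2aa2, Hist2h2aa1 and Hist3h2a, for 71.4% to 81.5%. At the other end, the testis genes Hist1h2ba and Hist1h2aa had 0 counts in all 11 libraries, which allows up to 3 counts in all, and another 20 members had between 1 and 20 counts over all libraries. The filter on low counts left 39 members for the tests over all 11 libraries (3 H1, 8 H2A, 10 H2B, 7 H3 and 11 H4), and 31 members were not tested there.

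Per kb of exon, the H2A gene Hist2h2aa2 had the highest mean level, at 103 CPM per kb, followed by Hist1h2bc at 94.6, Hist1h1c at 81.8, Hist2h2aa1 at 58.1 and the H4 genes Hist1h4h at 29 and Hist1h4i at 14.5. Hist2h2aa1 and Hist2h2aa2 share their coding sequence and a run of 528 bases, the whole transcript of the latter, so their order relative to each other rests on how reads were divided between them. Members with a known polyadenylated form were compared with the rest through a list of 9 genes (Hist1h1c, Hist1h2ac, Hist1h2bc, Hist1h2be, Hist1h4h, Hist2h2be, Hist3h2a, Hist3h2ba and Hist4h4). These 9 took 61.6% to 69.5% of the coding members' summed level and had a median of 7.72 CPM per kb, while the 58 other coding members had a median of 0.328 CPM per kb. The list was not uniform, since Hist4h4 was at 0.0855 CPM per kb, with 2515 annotated bases past its stop codon. Split by annotation instead, the 27 members with a 3′ end more than 150 bases past the stop codon took 71.4% to 82.6% of the summed level, at a median of 1.72 CPM per kb, and the 40 others had a median of 0.195 CPM per kb. With a limit of 100 bases the longer set held 31 members and 93.9% to 97.5%, since Hist2h2aa1 and Hist2h2aa2, at 109 annotated bases, and their level moved across. By the hairpin, the 44 members that carry it had a median of 0.961 CPM per kb, and the 8 without it that have enough annotated sequence had a median of 0.373 CPM per kb.

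**Figure D1:**
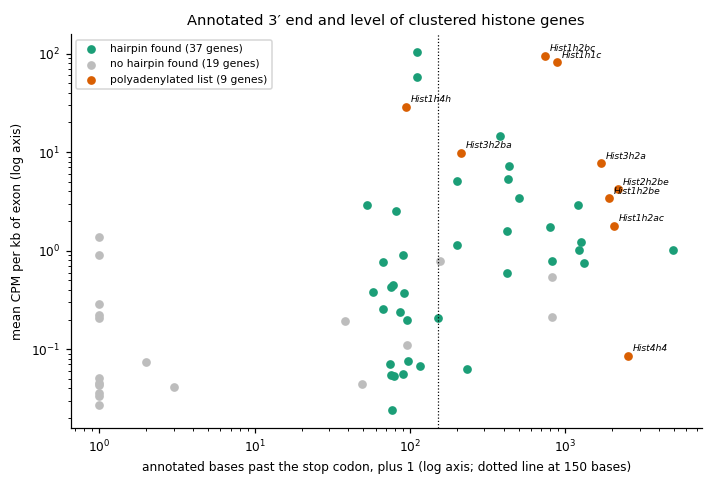
Mean level (CPM per kb of exon, log axis) of 65 coding members against the annotated number of bases past the stop codon plus 1 (log axis), each point a gene, coloured by the hairpin search and by the list of 9 polyadenylated genes, with 2 genes at 0 left off. Hist1h2bc and Hist1h1c sit at the top with long annotated 3′ ends, Hist4h4 sits near the bottom with the longest of the 9, and the 2 highest points left of the dotted line are Hist2h2aa2 at 103 and Hist2h2aa1 at 58.1 CPM per kb.

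To examine whether multiparity changes these genes when insulin demand is raised, multipara and virgin islets were compared after S-961. No member passed an adjusted p of 0.05 in edgeR's quasi-likelihood test among 34 tested, and neither did any of the 16784 genes tested (0%). With DESeq2 no member was called either, against 2.2% of all genes. At an unadjusted p under 0.05, 0 members were higher, against 8.03% of all genes, and 1 was lower, against 1.68%. Without multipara S-961 4, 5 of 33 members were lower at that level, against 5.1% of all genes. The median log2 fold change of the members was -0.19, beside 0.00 over all genes, and 25 of the 34 had a value below 0.

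The member with the smallest p was Hist2h2aa2, an H2A gene. Its level was 56.6, 70.0 and 84.2 CPM in virgin and 35.5, 47.9, 48.5 and 65.8 CPM in multipara islets, so the groups overlapped through multipara S-961 4. Its log2 fold change was -0.50 ± 0.21 (SE) with an adjusted p of 0.498. Hist1h2bc was at 88.5, 87.4 and 110 CPM in virgin and 58.9, 79.5, 62.1 and 90.1 CPM in multipara islets, with a log2 fold change of -0.38 ± 0.17 (SE, adjusted p = 0.524, edgeR). Hist1h1c had the highest level among the clustered linker histone genes. It ranged from 118 to 135 CPM in virgin and from 78.1 to 169 CPM in multipara islets. The log2 difference was -0.11 ± 0.25 (SE). The 3 largest changes in size were those of the H4 gene Hist4h4 at -1.34 ± 1.13, the H3 gene Hist2h3c1 at -1.14 ± 0.53 and the H3 gene Hist1h3f at -0.85 ± 0.52 (log2, SE), none past the threshold. Of the 9 polyadenylated members, 3 had values above 0 and 6 below, with a median of -0.11, and the 25 other coding members had a median of -0.23.

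Without multipara S-961 4, 2.69% of all genes were higher and 0.47% lower in multipara islets at an adjusted p under 0.05, and still none of 33 members was called in either direction. The nearest were Hist1h4h, an H4 gene, at a log2 fold change of -1.15 ± 0.34 (SE, adjusted p = 0.13, edgeR), and Hist2h2aa2 at -0.66 ± 0.20 (SE, adjusted p = 0.136, edgeR). The genes that accompany DNA replication were read in these same libraries. With all libraries, all 20 S-phase and proliferation genes, Slbp among them, had values above 0 in those labelled multipara. Their median was 1.68, and none passed the adjusted threshold. Without multipara S-961 4, 15 were higher and 0 lower. That library was set apart by these same genes, so the count without it is no separate support. Mki67, a marker of dividing cells, was at 3.43, 13.8 and 3.04 CPM in the libraries labelled virgin and 93.8, 65.5, 43.5 and 3.93 CPM in those labelled multipara. The 70 histone genes summed to 374, 380 and 461 CPM in the virgin and 246, 353, 412 and 352 CPM in the multipara libraries. The library with the highest Mki67, multipara S-961 1, thus had the lowest histone sum of all 11.

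Slbp, the stem-loop binding protein, was at 17.0, 18.5 and 21.1 CPM in virgin and 30.5, 38.2, 20.7 and 16.1 CPM in multipara islets after S-961. Among 14 genes of histone mRNA transcription and processing, Slbp included, 2 were higher and 0 lower at an unadjusted p under 0.05 and none passed the adjusted threshold. The 12 genes of replacement histones are polyadenylated and made outside S phase too. Of them, 11 were tested and 1 was higher at an unadjusted p under 0.05. At that level 8.03% of all genes were higher and 1.68% lower. The replacement gene Cenpa, the H3 variant of centromeres, rose by a log2 fold change of 2.23 ± 0.34 (SE, adjusted p = 0.013, edgeR) without multipara S-961 4. The linker variant H1fx rose by 0.94 ± 0.18 (SE, adjusted p = 0.0292, edgeR) in the same fit, where no clustered gene did. The library left out there was set apart by its low S-phase genes. Cenpa was low in it too, at 0.945 CPM compared with 4.48 to 10.2 CPM in multipara S-961 1 to 3.

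**Figure D2:**
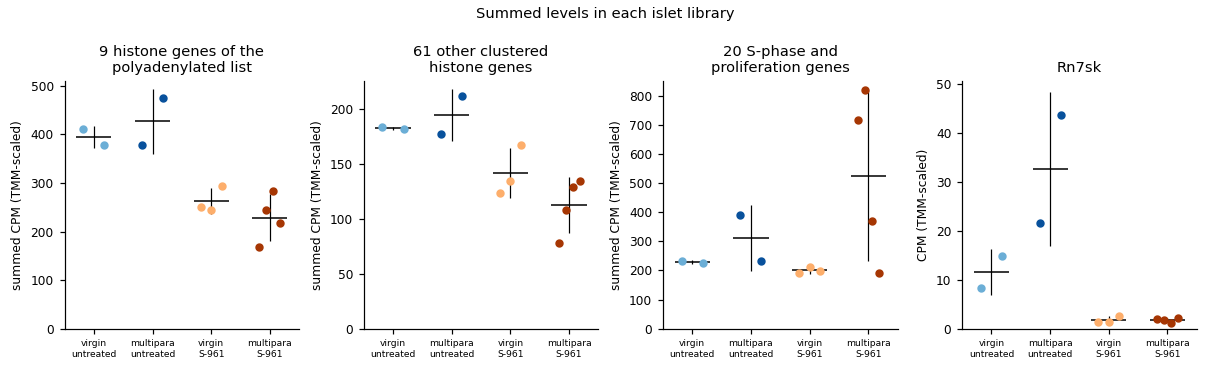
Summed level (CPM) per library, each point a library, with the group mean (line) and SD (vertical bar), of the 9 polyadenylated members, the 61 other members, 20 S-phase and proliferation genes, and the level of Rn7sk. On the TMM scale, both histone sums are lower in the S-961 libraries, at 168 to 294 and 78.3 to 168 CPM. The untreated libraries are at 379 to 474 and 178 to 212 CPM, and both sums would overlap without the TMM factors. The S-phase sum is highest in 2 multipara S-961 libraries, at 717 and 819 CPM.

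In untreated mice, multipara and virgin islets were compared in 2 libraries each. None of 33 members and none of 15812 genes (0%) passed an adjusted p of 0.05 in edgeR, and DESeq2 called no member, against 0.354% of all genes. At an unadjusted p under 0.05, 2 members were higher, against 2.52% of all genes, and 0 were lower, against 3.1%. Without multipara untreated 1, 6 of 34 members were higher at that level, against 4.28% of all genes. Without multipara untreated 2, 0 of 35 were higher and 3 were lower, against 14.6% and 8.14%, and the median of the members turned to -0.08. The median of the members was 0.09, beside 0.02 over all genes. The 2 members were Hist2h2aa1 and Hist1h3i. Hist2h2aa1 was at 54.5 and 58.9 CPM in virgin and 64.1 and 67.6 CPM in multipara islets (log2 fold change 0.22 ± 0.08, SE), and the H3 gene Hist1h3i was at 0.191 and 0.242 against 0.536 and 0.567 CPM (1.33 ± 0.50, SE). The other large values were 1.35 ± 0.65 for the H2B gene Hist1h2bq and -0.88 ± 0.44 for the H4 gene Hist1h4a. Hist1h1c was at 142 and 121 CPM in virgin and 132 and 165 CPM in multipara islets, with overlapping groups, and Hist1h2bc at 155 and 149 against 145 and 176 CPM.

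S-961 treatment went with lower levels of several members. In virgin islets, 10 of 39 tested members were lower than without treatment and 1 was higher, compared with 17.6% and 18.8% of all 17996 genes, and in multipara islets 12 were lower and 1 higher, compared with 19.4% and 18.2%. The same 10 genes were lower in both, namely the H2A genes Hist1h2ac, Hist2h2aa1 and Hist3h2a, the H2B genes Hist1h2bc, Hist1h2be, Hist2h2be and Hist3h2ba, the H4 genes Hist1h4h and Hist1h4i, and the H3 gene Hist2h3c2. Hist1h4c and Hist1h4j, named after their values were seen, were the other 2 in multipara islets. The median log2 fold change of the tested members was -0.39 in virgin and -0.62 in multipara islets, beside -0.04 and 0.03 over all genes. The comparisons in virgin and in multipara islets use different libraries in both arms, but a single spread was estimated over all 11.

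The H4 gene Hist1h4i gave the smallest p in both. Its level was 20.4 and 19.1 CPM in virgin and 19.7 and 25.3 CPM in multipara islets without treatment. After S-961 it was 4.23, 3.80 and 4.75 CPM in virgin and 3.60, 4.60, 6.12 and 4.67 CPM in multipara islets, so treated and untreated libraries did not overlap. It fell by 2.21 ± 0.22 on the log2 scale in virgin islets (SE, adjusted p = 0.000135, edgeR) and by 2.24 ± 0.20 in multipara islets (SE, adjusted p = 7.9e-05, edgeR).

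Hist1h4h, an H4 gene of the polyadenylated list, was at 23.1, 26.8, 27.0 and 33.3 CPM in the 4 untreated libraries, virgin first. It was at 6.03, 5.07 and 11.5 CPM in virgin and 2.76, 3.61, 3.68 and 7.30 CPM in multipara islets after S-961, with no overlap between treated and untreated. The log2 fold change was -1.73 ± 0.40 in virgin (SE, adjusted p = 0.00678, edgeR) and -2.80 ± 0.37 in multipara islets (SE, adjusted p = 0.000398, edgeR). The difference between these changes was -1.07 ± 0.56 (log2, SE), with an adjusted p of 0.772 in edgeR's test of the interaction.

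Hist3h2ba, an H2B gene of the small Hist3 cluster, was at 12.7, 12.7, 10.2 and 12.8 CPM without treatment. After S-961 it was at 1.39, 2.72 and 2.30 CPM in virgin and 2.98, 4.07, 2.47 and 2.33 CPM in multipara islets. It fell by 2.57 ± 0.31 on the log2 scale in virgin and by 1.95 ± 0.28 in multipara islets (SE, adjusted p = 0.000306 and 0.000631, edgeR). Its neighbour Hist3h2a, an H2A gene, went from 26.9, 23.7, 23.6 and 32.3 CPM to 9.08, 9.20 and 14.6 CPM in virgin and 9.16, 10.4, 15 and 8.42 CPM in multipara islets, a log2 fold change of -1.21 ± 0.27 and -1.38 ± 0.26 (SE). Hist3h2a shares 708 bases with Trim17 in the annotation.

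The H2B genes Hist1h2bc and Hist1h2be fell by different amounts. Hist1h2bc went from 155, 149, 145 and 176 CPM to the treated values given above, all under every untreated value, a log2 fold change of -0.68 ± 0.19 in virgin (SE, adjusted p = 0.0178, edgeR) and -1.14 ± 0.18 in multipara islets (SE, adjusted p = 0.000885, edgeR). Hist1h2be, whose octamer promoter is printed above, went from 26.4, 23.8, 22.9 and 32.8 CPM to 7.39, 8.63 and 7.99 CPM in virgin and 4.55, 8.81, 15.3 and 8.01 CPM in multipara islets, a log2 fold change of -1.65 ± 0.37 and -1.60 ± 0.34 (SE). Multipara S-961 3 was the highest treated library for Hist1h2be, as it was for Hist1h1d and Hist1h1e, and Hist1h2be overlaps Hist1h1e by 496 bases on the same strand. Of the lower changes called, the H2A gene Hist1h2ac at -0.93 ± 0.24 and -0.96 ± 0.23 and the H2B gene Hist2h2be at -0.84 ± 0.21 and -0.59 ± 0.20 were among the smallest (log2, SE, virgin then multipara).

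Not every abundant member followed. Hist1h1c was at 142, 121, 132 and 165 CPM without treatment and 78.1 to 169 CPM after it, a log2 fold change of -0.05 ± 0.28 in virgin and -0.35 ± 0.26 in multipara islets (SE, adjusted p = 0.898 and 0.304, edgeR). Hist1h1d, another linker histone gene, had values of -0.93 ± 0.52 and -0.74 ± 0.49 (log2, SE) that did not pass the threshold. Hist2h2aa2 had values of 0.59 ± 0.23 in virgin and 0.08 ± 0.22 in multipara islets, neither past the threshold. In virgin islets it was called higher with DESeq2 (adjusted p = 0.0412) and with library totals alone (adjusted p = 0.00375, edgeR).

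**Figure D3:**
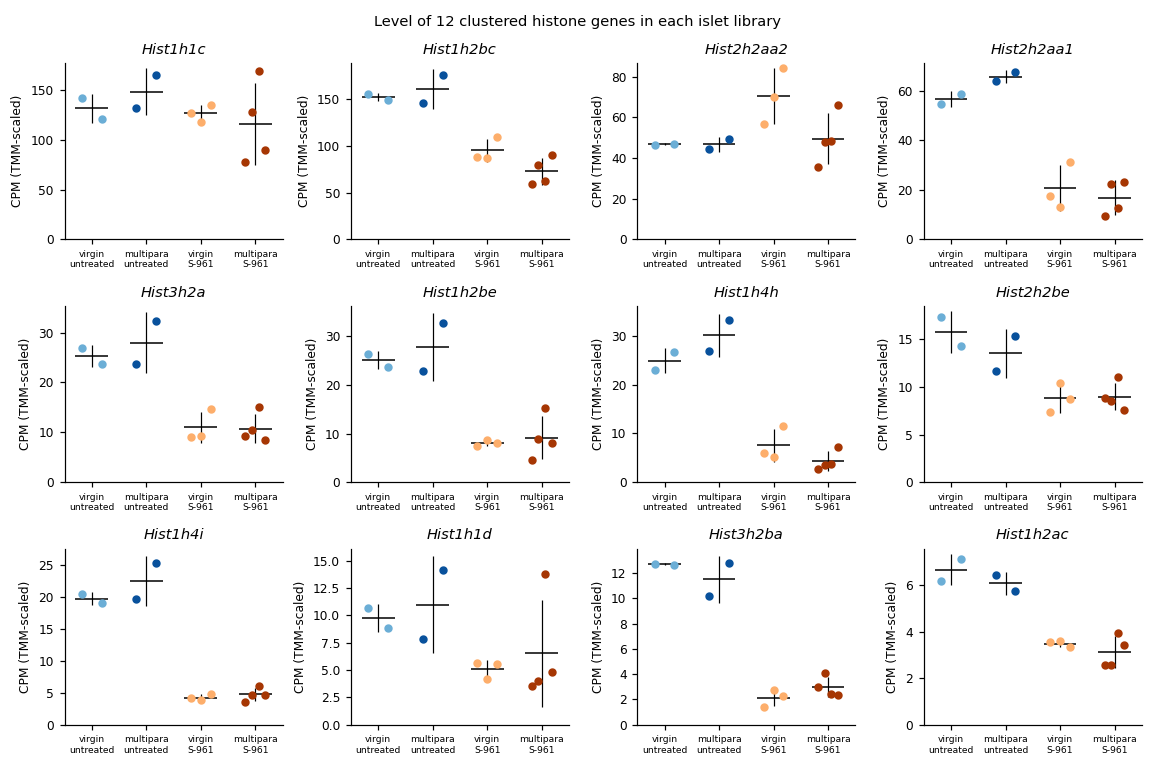
Level (CPM) of 12 members in each library, each point a library, with the group mean (line) and SD (vertical bar) and the axis from 0. On the TMM scale, the untreated points lie above every S-961 point for Hist1h2bc, Hist2h2aa1, Hist3h2a, Hist1h2be, Hist1h4h, Hist2h2be, Hist1h4i, Hist3h2ba and Hist1h2ac. Treated and untreated points overlap for Hist1h1c, Hist2h2aa2 and Hist1h1d. The share of all genes that separate in this way was not counted, and 17.6% of all genes were called lower in virgin and 19.4% in multipara islets.

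By class, the summed levels of H4, H2B and H2A genes on the TMM scale did not overlap between treated and untreated libraries. How often sums of other genes separate in this way was not counted. The H4 genes summed to 62.8 to 80.1 CPM in the 4 untreated and 12.9 to 28 CPM in the 7 S-961 libraries, and the H2B genes to 197 to 246 CPM and 82.6 to 137 CPM. The H2A sums were 136 to 156 CPM and 59.1 to 135 CPM, and they would overlap without the TMM factors. The sums overlapped for H1, at 137 to 189 CPM untreated and 84.2 to 193 CPM treated, and for H3, at 11.9 to 15.7 CPM and 7.32 to 17.3 CPM. In the untreated libraries Hist1h4h and Hist1h4i made up most of the H4 sums. Over tested genes the median log2 fold changes in virgin islets were -0.93 for H1, 0.42 for H2A, -0.76 for H2B, 0.25 for H3 and -0.40 for H4. In multipara islets they were -0.62, -0.33, -0.94, -0.42 and -1.22. In bulk islets, a smaller share of cells that hold such a transcript and less of it per cell cannot be told apart.

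Of the 9 polyadenylated members, 7 were lower and 0 higher in virgin islets after S-961, and again 7 and 0 in multipara islets, with medians of -0.93 and -1.38. The exceptions were Hist1h1c and Hist4h4, the latter at most 0.452 CPM in any library. With library totals alone, 3 and 4 of the 9 were lower, with medians of -0.46 and -0.76. Lower calls over all genes were fewer on that scale too, as given below. Of the 29 other coding members tested, on the TMM scale, 3 were lower and 1 higher in virgin islets. In multipara islets 5 were lower and 1 higher, and the medians were 0.06 and -0.48. Of all genes, 17.6% were lower and 18.8% higher in virgin and 19.4% and 18.2% in multipara islets. The listed genes also had the higher counts, with a median level of 13.6 CPM compared with 0.173 CPM for the other coding members, and the difference between the sets was not tested. Of the 12 members lower in either comparison, 10 carry the hairpin in their annotated transcript, and Hist1h2bc and Hist2h2be do not. This is close to the 84.6% of members with enough annotated sequence that carry it.

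**Figure D4:**
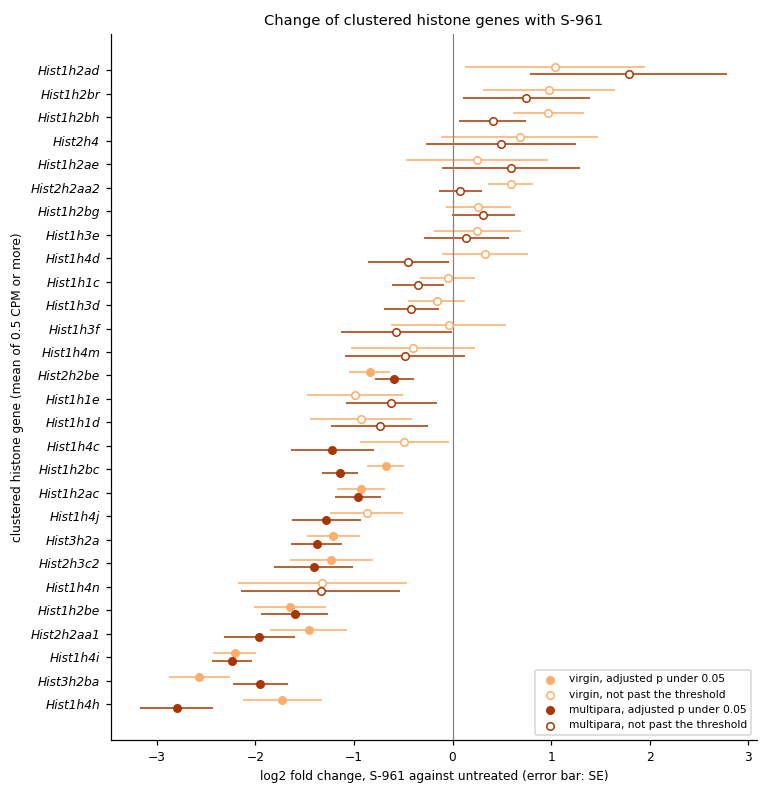
Log2 fold change of S-961 against untreated islets, with its SE as a bar, for 28 tested members with a mean level of 0.5 CPM or more, ordered by the sum of both changes, in virgin (light) and multipara (dark) islets. Hist2h3c1, called higher in both, is left off because all its untreated libraries were at 0. Filled points passed an adjusted p of 0.05 in edgeR's quasi-likelihood test. The filled points shown lie left of 0, from -0.59 for Hist2h2be to -2.80 for Hist1h4h.

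These directions depend on the scale. With library totals alone in place of TMM, the median of all genes moved to 0.43 in virgin and 0.61 in multipara islets, and the calls over all genes from 3390 higher and 3172 lower to 6409 and 1272 in virgin and from 3272 and 3496 to 7787 and 1304 in multipara islets. The members then stood at 3 higher and 5 lower, with a median of 0.07, in virgin islets and at 5 higher and 6 lower, with a median of 0.02, in multipara islets, both medians under those of all genes. Hist1h4i, Hist1h4h, Hist3h2ba and Hist2h2aa1 were lower on that scale too in both, with Hist1h4i at -1.75 ± 0.24 and -1.64 ± 0.22 (log2, SE). Hist1h1c was at 0.41 and 0.26, above 0 on this scale, without passing the threshold. Without virgin untreated 1 or virgin untreated 2, the lower calls in virgin islets went from 10 of 39 to 4 and 5 of 46 members tested, beside 8.98% and 7.9% of all genes.

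Some RNAs made without a poly(A) tail moved with treatment. Of 9 non-polyadenylated RNAs, listed as 10 genes, 6 were tested, of which 2 were lower and 0 higher in virgin and 4 lower and 0 higher in multipara islets, with medians of -2.17 and -2.45. Over all genes, 17.6% and 19.4% were lower. The summed list did not fall in virgin islets, at 398 and 459 CPM untreated and 454, 503 and 539 CPM after S-961. In multipara islets the sums were 502 and 550 CPM untreated and 352 to 428 CPM after S-961. With library totals alone, 2 were higher and 1 lower in virgin and 0 higher and 3 lower in multipara islets. Rn7sk, a small nuclear RNA made without a tail, was at 8.26, 14.9, 21.5 and 43.6 CPM in the untreated and between 1.13 and 2.62 CPM in the treated libraries. The rise of acinar genes and the fall in the insulin share given above moved with treatment too. The part of any of these in the histone values was not tested, and no source used here says whether treated and untreated libraries were prepared together.

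Of 14 genes that serve histone messengers, 5 were higher and 2 lower in virgin and 4 higher and 1 lower in multipara islets after S-961. Of all genes, 18.8% were higher and 17.6% lower in virgin and 18.2% and 19.4% in multipara islets. With library totals alone, 9 were higher and 1 lower in virgin and 11 higher and 1 lower in multipara islets. Higher calls over all genes rose on that scale as well, as given above. Npat, which activates histone gene transcription, rose by 1.25 ± 0.18 and 1.36 ± 0.18 (log2, SE), and Casp8ap2, another protein of histone gene loci, by 1.09 ± 0.19 and 0.88 ± 0.18. Lsm10, a part of the U7 particle that cuts the messenger after the stem-loop, fell by 1.87 ± 0.24 and by 2.07 ± 0.23. Of the 12 replacement histone genes, 1 was higher and 2 lower in each comparison, and with library totals alone 4 were higher and 1 lower in virgin and 6 higher and 0 lower in multipara islets. H2afx rose by 0.79 ± 0.19 and 0.95 ± 0.18, and H2afv fell by 1.08 ± 0.20 and by 0.72 ± 0.19 (log2, SE). The 15 histone chaperone genes had 2 higher in virgin and 3 higher in multipara islets and none lower, or 4 and 7 higher with library totals alone.

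Near-identical genes made part of the picture uncertain. Of the members' values above 0, 79.0% were not whole numbers, compared with 22% in other genes, where a whole value is one exactly whole as deposited (tolerance 0). Values that are not whole arise where reads are divided between genes. Hist2h2aa1 took 53.9% to 59.2% of the counts of the Hist2h2aa1 and Hist2h2aa2 pair in the 4 untreated libraries and 15.8% to 31.7% in the 7 treated ones, with no overlap. The summed pair changed by -0.19 ± 0.25 in virgin (log2, SE, adjusted p = 0.596, edgeR) and fell by 0.76 ± 0.24 in multipara islets (adjusted p = 0.0271, edgeR), less than Hist2h2aa1 alone at -1.46 ± 0.39 and -1.96 ± 0.36. The H3 genes Hist2h3c1 and Hist2h3c2 share a run of 666 bases. Hist2h3c1 had 0 counts in all 4 untreated libraries and between 44 and 252 counts in each treated library, and was the 1 member called higher. Against a floor of 3 counts over the untreated group, its level was at least 71.6-fold higher in virgin and at least 24.3-fold higher in multipara islets. The sum of both was 10.4, 8.30, 6.3 and 10 CPM without treatment and between 2.85 and 12.4 CPM after it, with log2 fold changes of -0.19 ± 0.43 and -0.71 ± 0.41 that did not pass the threshold. On the same strand, the transcript model Gm20634, which overlaps Hist2h2aa1 by 529 bases and Hist2h3c1 by all 1825 of its bases, went from 44.2 to 65.0 CPM down to 12.2 to 37.4 CPM. How reads were divided between it and Hist2h3c1 was not tested. With identical members summed, 8 members were lower and 0 higher in virgin islets and 11 and 0 in multipara islets, of 34 tested. The low H2A gene Hist1h2ao, among the largest fitted changes, had 0 counts in every untreated library and 0 to 16 counts in the treated ones. It was not called, with an adjusted p of 0.184 in virgin and 0.188 in multipara islets (edgeR). It shares its coding sequence and a run of 452 bases with Hist1h2ap, and their sum changed by 1.46 ± 0.78 and 0.40 ± 0.71 (log2, SE), neither past the threshold.

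**Figure D5:**
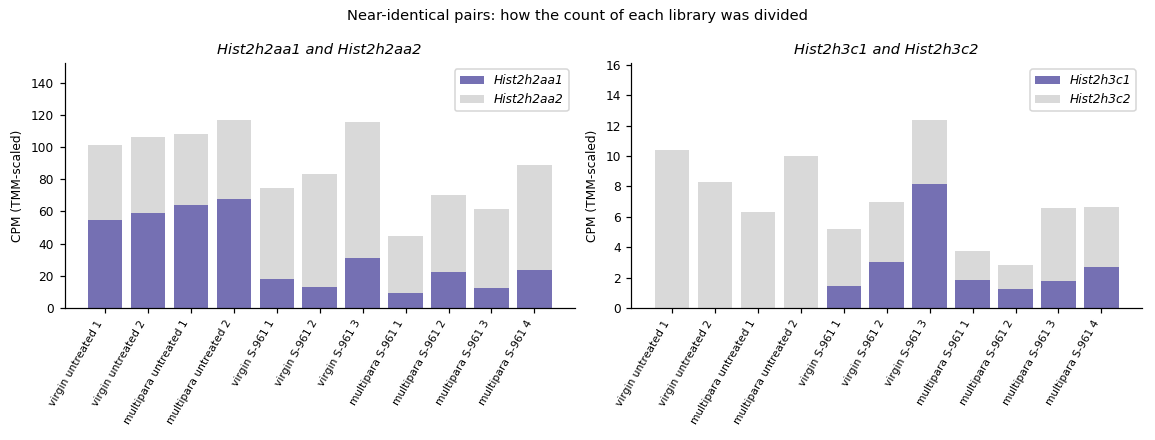
Stacked level (CPM, axis from 0) of Hist2h2aa1 (dark) with Hist2h2aa2 (light), and of Hist2h3c1 (dark) with Hist2h3c2 (light), in each of the 11 libraries. The dark part is about level with the light part for Hist2h2aa1 in the untreated libraries and smaller in the treated ones, and it is absent for Hist2h3c1 in the untreated libraries.

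The change with S-961 was not shown to differ between virgin and multipara islets. In edgeR's test of the interaction, none of 39 members and none of 17996 genes (0%) passed an adjusted p of 0.05, and DESeq2 called no member, against 0.439% of all genes. At an unadjusted p under 0.05, 0 members were higher and 0 lower, against 4.27% and 2.28% of all genes. The median of the members was -0.19, beside -0.04 over all genes. The largest interaction values were 3.29 ± 1.83 for the H3 gene Hist1h3a, -1.92 ± 1.73 for Hist4h4 and -1.40 ± 1.78 for Hist1h2ap (log2, SE), genes whose means over all libraries ran from 0.184 to 0.245 CPM. Hist1h2bc had -0.47 ± 0.27 and Hist3h2ba 0.62 ± 0.43 (log2, SE), neither past 2 SE. Without multipara S-961 4, 0 of 39 members passed the adjusted threshold, against 0.252% of all genes, and 3 were lower at an unadjusted p under 0.05, against 4.2%.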

How the data were processed

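Poly(A) RNA of mouse islets was sequenced by the authors with a stranded mRNA kit from RNA with an integrity number over 8. The authors deposited expected counts per gene, as RSEM estimates them from aligned reads, without normalization and with 1 table per library. STAR, RSEM and GRCm38/mm10 are named in the submitters' processing notes, and versions are not given in the sources used here. Counts were rounded. edgeR 4.0.16 (R 4.3.3) was used with TMM, filterByExpr (minimum count 10, minimum total 15), the quasi-likelihood test and Benjamini-Hochberg adjustment over all genes tested, with DESeq2 1.42.0, other scalings, no filter, a replicate block and leaving out each library as alternatives. The S-961 parity fit used 7 libraries, the untreated fit 4, and the other 3 comparisons all 11. Named members were the polyadenylated list, the 10 with the highest mean level, and the 3 largest changes per comparison. The members and lists were chosen with earlier results of these data known, and the polyadenylated list from general knowledge. On simulated counts with 200 genes changed 4-fold, edgeR recovered 184 in the S-961 parity comparison, 163 in the untreated comparison and 177 in that of S-961 in virgin islets. No library repeated another. Intervals and floors cover counting error only.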

Additional observations from a re-analysis of the deposited data

Results flagged for a closer look

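In the group of 4 multipara S-961 libraries, the only group large enough for this check, 1 library of each of 2 members lay far from the other 3 by Dixon's criterion, among 39 members checked. Hist1h1d was at 13.8 CPM in multipara S-961 3, compared with 3.5 to 4.82 CPM in the others. Hist1h4a was at 0.135 CPM in multipara S-961 1, compared with 0.378 to 0.386 CPM in the others. Chance alone flags about 1 in 20 groups. Without multipara S-961 3, Hist1h1d changed by -1.41 on the log2 scale between S-961 and untreated multipara islets, and Hist1h1c by -0.59. That library was set apart by its high Hist1h1d and was the highest treated library for Hist1h1c too. Leaving it out lowers both values, so they are no separate support for a fall.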

How the results depend on the processing

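No member was called between multipara and virgin islets, or in the interaction, under any alternative run. The calls with S-961 moved more. In virgin islets, 3 members were higher with DESeq2, with no filter and with library totals alone, 2 with the replicate number as a block and 0 with identical members summed, an alternative chosen after seeing the data. With DESeq2 and with library totals alone, the 3 were Hist2h3c1, Hist2h2aa2 and the H2B gene Hist1h2bh, the last named after its values were seen. In virgin islets, 5 were lower with library totals alone. The median there moved to -0.19 with identical members summed, -0.02 with no filter, -0.56 with the replicate block and 0.07 with library totals alone. In multipara islets, 0 were higher with identical members summed, and 5 were higher and 6 lower with library totals alone, at a median of 0.02. Leaving out each library in turn gave 4 to 10 lower in virgin and 8 to 16 lower and 1 to 3 higher in multipara islets. The medians then ran from -0.50 to 0.05 and from -0.90 to -0.35, that of S-961 parity from -0.32 to -0.08, and -0.37 with the replicate block, that of untreated parity from -0.08 to 0.16 and that of the interaction from -0.44 to -0.07. Where 1 untreated library remained in an arm, it was assumed to vary like the other groups. In every alternative 3 of the 10 lower calls in virgin (Hist1h2be, Hist1h4i, Hist3h2ba) and 6 of the 12 in multipara islets (Hist1h2bc, Hist1h4h, Hist1h4i, Hist2h2aa1, Hist3h2a, Hist3h2ba) were kept, Hist2h2aa1 apart from its sum with Hist2h2aa2. Hist2h3c2 and Hist1h2bc in virgin and Hist1h4c and Hist2h2be in multipara islets were each lost under 5 to 8 alternatives.

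The members whose value turned sign had not been called, except Hist2h2be in multipara islets. For multipara against virgin with S-961, Hist3h2a was at 0.10 with the replicate block and 0.07 with library totals, and leaving out each library in turn gave -0.23 to 0.25 for it, -0.36 to 0.04 for Hist1h1c, -0.16 to 0.43 for Hist1h2be and -0.08 to 0.18 for Hist2h2be. With S-961 in virgin islets, Hist1h1c was at 0.41 with library totals and 0.07 without virgin untreated 1, and Hist4h4 at -0.67 with the block and at -0.40 to 0.55 with a library left out. In multipara islets, Hist1h1c was at 0.26 and Hist2h2be at 0.02 with library totals, and Hist2h2aa2 at -0.21 with the block and -0.09 to 0.21 with a library left out. The cause was not tested. The share of members with a long annotated 3′ end was 46.3% past 100 and 32.8% past 300 bases. Replicate numbers were not taken as pairs. Same-numbered libraries correlated in their deviations at 0.06, 0.01 and 0.09 for virgin and multipara S-961, where 1 of 3 virgin libraries correlated best with its own number, and at 0.28 and 0.28 in the 2 untreated pairs. The block moved the calls over all genes in the S-961 parity comparison from 0 to 309 higher and 33 lower. Members with a mean under 1 CPM are limited by their counts.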
